A study of Mus musculus with 57 samples.

Results

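Megakaryocyte and platelet genes are described here across sorted mouse bone marrow. The 10 members, Pf4, Ppbp, Plek, Vwf, Gp1bb, Gp9, Gp6, Selp, Treml1 and Clec1b, were chosen by name, and each matched 1 of the 47712 genes with an Ensembl ID in a table of 56332 genes. The mice were C57BL/6 males aged 8 weeks treated for 4 weeks with anti-PAPP-A antibody, which binds a secreted protease of the insulin-like growth factor system, or with a control antibody. RNA was sequenced from unsorted whole bone marrow (WBM) and from 6 sorted populations: haematopoietic stem cells (HSC), megakaryocyte-erythroid progenitors (MEP), lymphoid progenitors (CLP), progenitors of granulocytes and monocytes (GMP), Myeloid cells and mesenchymal stromal cells (MSC). Control and treated groups held 3 and 4 HSC libraries, 4 and 4 libraries each of MEP, CLP and GMP, 6 and 6 Myeloid libraries and 6 and 4 MSC libraries, and WBM came from 4 control pools alone. Each library was made from a numbered mouse pool. The 10 control and 10 treated pools had different numbers, and the same number marks the same mice in several populations. Neither the sort markers nor the number of mice in a pool is stated in the labels. HSC, MEP, CLP and GMP libraries came from batch A. As labelled, MSC and WBM libraries came from batches A and C, and Myeloid libraries from batches B and C.

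Megakaryocytes are the marrow cells that shed platelets. They store proteins in alpha-granules, place adhesion receptors on the platelet surface and derive from stem cells, both through bipotent progenitors shared with erythroid cells and, as is known from other work, through stem cells already primed towards platelets. Of the members, Pf4 and Ppbp encode the granule chemokines platelet factor 4 and pro-platelet basic protein. Vwf encodes von Willebrand factor, the adhesive granule protein that endothelium also makes. Selp encodes P-selectin, a granule membrane receptor of platelets and endothelium, and Treml1 encodes a further granule membrane receptor. Gp1bb and Gp9 encode subunits of the platelet receptor for von Willebrand factor, Gp6 encodes the collagen receptor GPVI, and Clec1b encodes CLEC-2, the podoplanin receptor. Plek encodes pleckstrin, a substrate of protein kinase C that other blood cells also hold. In RNA from sorted cells, a lower level can come from fewer cells with the transcript or from less of it in each cell, and these cannot be told apart.

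Levels are counts per 1000000 counts of a library (CPM), scaled by the trimmed mean of M-values (TMM) over all 57 libraries. Library totals ran from 107412 counts in an HSC library to 125537299 in a Myeloid library, and 4 libraries held under 1000000 counts. These were treated HSC pool 6, control CLP pool 5, control MSC pool 7 and treated MSC pool 8. The 3 control HSC libraries held 8023673 to 9023967 counts and the 4 control MEP libraries 6886882 to 42471152. Marker lists separated HSC from MEP as labelled. The summed level of 10 stem cell genes was 1189 to 1591 CPM in control HSC and 412 to 487 CPM in control MEP. The summed level of 13 erythroid genes was 953 to 1460 CPM in control HSC and 5061 to 7641 CPM in control MEP.

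All 10 members matched a protein-coding gene of the GENCODE M21 annotation of GRCm38. Ppbp (chromosome 5, 90768518 to 90770063) and Pf4 (chromosome 5, 90772435 to 90773383) are neighbours on the plus strand, 2371 bases apart. Vwf (chromosome 6, 125546774 to 125686679), Gp9 (chromosome 6, 87778072 to 87779768) and Clec1b (chromosome 6, 129397297 to 129409335) share a chromosome and the plus strand, at distant places. Selp is on chromosome 1 (164115264 to 164150026, plus), Treml1 on chromosome 17 (48359916 to 48367176, plus), Plek on chromosome 11 (16971206 to 17052381, minus), Gp6 on chromosome 7 (4363965 to 4397744, minus) and Gp1bb on chromosome 16 (18620317 to 18622403, minus). Gp1bb overlaps Sept5 on the same strand and Clec1b overlaps Clec9a on the same strand, so counts of these pairs may be split uncertainly. Plek overlaps Cnrip1 on the other strand, which a strand-specific kit, as the labels describe, can tell apart if the counting used strand.

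The 250 bases before the RefSeq start of a member are shown for 5 members because the results turn on them or because they hold a searched motif. RefSeq windows of GRCm38.p6 matched 9 of the 10 members, and Vwf had none. Pf4, Gp9 and Selp are granule or receptor genes high in HSC, Clec1b had the largest difference between control HSC and MEP, and Gp6 was at 0 in HSC. Each line is written 5′ to 3′ on the strand of the gene. Capitals mark an ETS-type or a GATA-type motif, spelled out after the windows, on either strand.
Pf4, chr5:90772185-90772434, plus: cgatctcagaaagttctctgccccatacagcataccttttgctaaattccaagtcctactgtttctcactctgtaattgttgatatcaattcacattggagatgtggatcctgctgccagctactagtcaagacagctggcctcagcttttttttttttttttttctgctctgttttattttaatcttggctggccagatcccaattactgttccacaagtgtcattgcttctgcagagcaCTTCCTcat
Gp9, chr6:87777820-87778069, plus: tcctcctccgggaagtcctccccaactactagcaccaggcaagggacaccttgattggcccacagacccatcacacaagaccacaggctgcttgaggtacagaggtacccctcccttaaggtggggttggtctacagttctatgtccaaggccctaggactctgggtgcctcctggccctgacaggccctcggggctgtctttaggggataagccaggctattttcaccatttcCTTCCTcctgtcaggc
Selp, chr1:164115014-164115263, plus: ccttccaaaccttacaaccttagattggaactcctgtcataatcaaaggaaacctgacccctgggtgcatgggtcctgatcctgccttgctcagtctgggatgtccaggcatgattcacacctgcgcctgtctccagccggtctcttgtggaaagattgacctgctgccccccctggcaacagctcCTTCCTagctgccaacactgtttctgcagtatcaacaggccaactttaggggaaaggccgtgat
Clec1b, chr6:129397047-129397296, plus: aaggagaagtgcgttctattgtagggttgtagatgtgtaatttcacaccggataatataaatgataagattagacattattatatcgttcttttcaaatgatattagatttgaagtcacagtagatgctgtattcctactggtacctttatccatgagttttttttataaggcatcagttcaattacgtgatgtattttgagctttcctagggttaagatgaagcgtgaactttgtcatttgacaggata
Gp6, chr7:4397745-4397994, minus: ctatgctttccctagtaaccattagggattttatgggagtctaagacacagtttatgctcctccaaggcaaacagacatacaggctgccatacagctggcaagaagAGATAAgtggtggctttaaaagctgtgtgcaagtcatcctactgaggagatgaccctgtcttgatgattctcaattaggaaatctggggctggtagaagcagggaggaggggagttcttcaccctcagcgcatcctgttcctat
AGGAAG stood in 3 of the 9 member windows (Pf4, Gp9 and Selp), beginning 9, 16 and 64 bases before the start, each as its reverse complement CTTCCT. It stood in 29.5% of all 32851 windows. AGATAA stood in 1 of 9 (Gp6, 144 bases before the start) and in 9.99% of all windows. TGTGGT, a RUNX-type motif, stood in 1 of 9 (Gp9, as ACCACA, 171 bases before the start) and in 14.0% of all windows. The searched motifs do not overlap each other in the printed windows, and a match describes letters only.

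**Figure D1:**
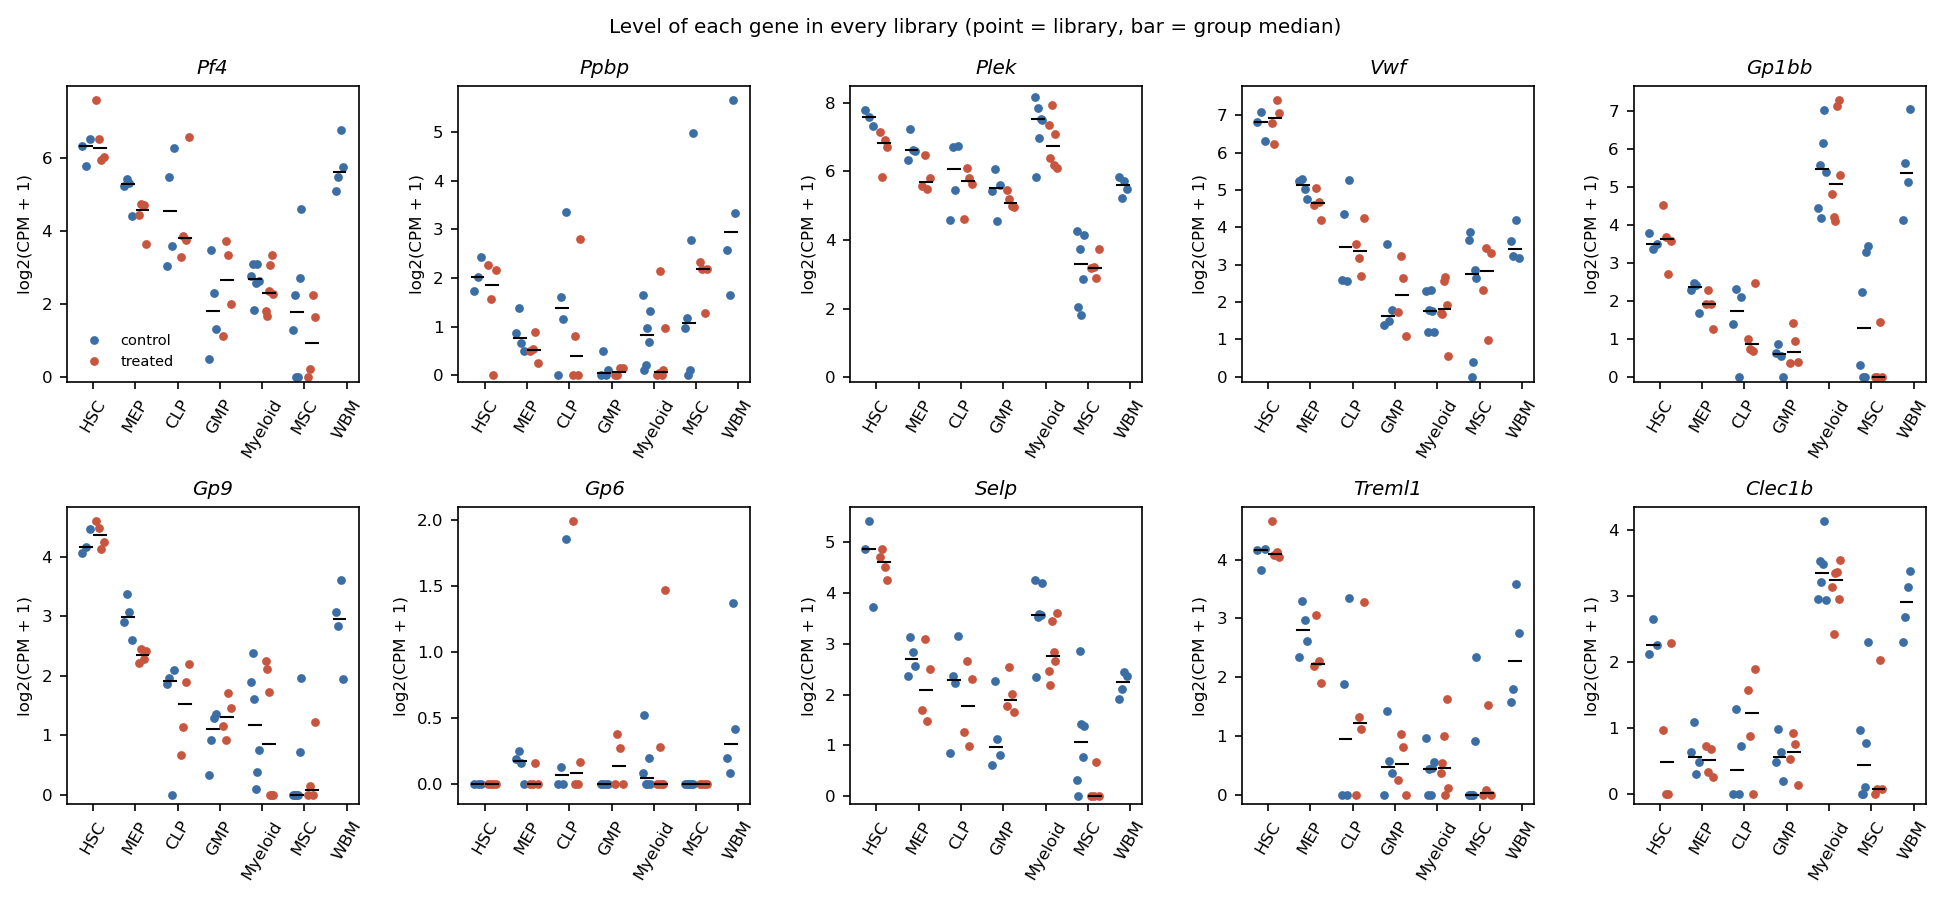
Level of each of the 10 genes as log2(CPM + 1) (vertical axis, its range set for each gene) in the 7 populations (horizontal axis). Each point is a library, blue for control and red for treated, and each bar is the group median. For Vwf, Gp9 and Treml1 the 3 control HSC points sit above every control point of the other populations, and for Gp6 all HSC points sit at 0.

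In control marrow the highest mean of 6 members, Pf4, Plek, Vwf, Gp9, Selp and Treml1, was in HSC. Vwf stood at 113, 136 and 78.0 CPM in control HSC pools 3, 5 and 7. In control MEP it stood at 36.6, 38.2, 31.6 and 26.2 CPM in pools 1, 3, 5 and 7. The order of its means continued with CLP (16.7 CPM), WBM (11.2), MSC (6.19), GMP (4.13) and Myeloid (2.56), and only the step from HSC to MEP had no overlap of libraries. Gp9 stood at 15.6, 17.0 and 21.0 CPM in HSC and at 6.47, 9.42, 7.44 and 5.04 CPM in MEP. Treml1 stood at 16.9, 13.2 and 17.0 CPM in HSC and at 4.11, 8.85, 6.85 and 5.15 CPM in MEP. For Gp9 and Treml1, as for Vwf, no other control population overlapped HSC.

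Pf4, Plek and Selp also had their highest mean in HSC, but the next population overlapped. Pf4 stood at 78.9, 53.7 and 91.0 CPM in control HSC pools 3, 5 and 7. In WBM pools 1, 5, 7 and 15 it stood at 33.4, 43.9, 107 and 52.9 CPM. The WBM libraries therefore spanned the HSC range for this chemokine. Plek stood at 221, 192 and 160 CPM in control HSC, and at 55.9 to 288 CPM (median 182 CPM) over the 6 control Myeloid libraries. Selp stood at 27.9, 41.5 and 12.2 CPM in control HSC, and at 4.05 to 18.0 CPM (median 10.9) in control Myeloid. Its lowest HSC library, pool 7, lay within the Myeloid range.

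The other 4 members had another order. Ppbp was highest in WBM, at 4.94, 2.13, 49.9 and 9.09 CPM in pools 1, 5, 7 and 15, so its mean there rested mainly on pool 7. Control HSC libraries held 2.32, 3.06 and 4.41 CPM of Ppbp. Gp1bb was highest in WBM (16.4 to 132 CPM) and in Myeloid (17.0 to 130 CPM), and HSC held 12.7, 9.35 and 10.2 CPM. Clec1b was highest in Myeloid, at 6.72 to 16.6 CPM (median 9.25 CPM), overlapping WBM at 3.95, 5.40, 7.79 and 9.42 CPM. Control HSC held 3.35, 5.27 and 3.78 CPM of Clec1b, which overlapped the low end of WBM.

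Gp6 was the exception among the receptors. It had 0 counts in all 7 HSC libraries, which allows up to 0.0936 CPM over the control and 0.155 CPM over the treated libraries at the limit of 3 counts. Control MEP pools 1, 3, 5 and 7 held 2, 2, 1 and 0 counts. WBM pools 1, 5, 7 and 15 held 5, 2, 54 and 4 counts. Most WBM counts thus came from pool 7, the library that was also highest for Pf4, Ppbp, Vwf, Gp9, Selp and Treml1. Gp6 also had 0 counts in every MSC library and in every control GMP library, and single libraries of CLP and Myeloid reached 2.99 and 1.77 CPM from 15 and 22 counts. Intervals and limits on counts cover counting error alone.

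Between genes, levels were compared per kilobase of the longest annotated transcript. In control HSC, Pf4 was the most abundant member at 127 ± 32.4 CPM per kilobase (SD, n = 3), followed by Plek at 46.6 ± 7.40. Gp9 stood at 20.3 ± 3.18, Treml1 at 12.7 ± 1.78 and Vwf at 12.3 ± 3.31 CPM per kilobase. Selp stood at 7.91 ± 4.26, Gp1bb at 5.16 ± 0.847, Ppbp at 3.02 ± 0.979 and Clec1b at 0.951 ± 0.232. Of the chemokine neighbours, Pf4 was thus the most abundant member per kilobase in these cells, while Ppbp stood above Clec1b and Gp6 alone.

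Set against MEP, HSC of control pools held more of the platelet genes, and 4 members passed the test. Every control HSC library stood above every control MEP library for 9 members, and Gp6 was the tenth. The share of all genes that separate in this way was not computed, for control or treated pools, so such separations are descriptions alone. The edgeR quasi-likelihood test with Benjamini-Hochberg adjustment over 16084 genes used the 15 control libraries of HSC, CLP, GMP and MEP. It called 18.9% of all genes higher in HSC and 32% in either direction, so calls in this contrast were common. Of the 9 members above the count filter, 4 were called higher and 0 lower, and the median log2 difference of the 9 was 1.53, beside 0.05 over all genes. Clec1b, the CLEC-2 receptor, was 7.17-fold higher (log2 2.84, SE 0.70, edgeR adjusted p = 0.00522). Its control MEP libraries held 0.557, 1.13, 0.236 and 0.396 CPM, against at least 3.35 CPM in HSC. Clec1b passed the count filter of this fit mainly through the HSC libraries, where it was high, since no other control library of the fit held more than 1.46 CPM. Its call and its place in the count of 4 are therefore a description of these libraries rather than support for the whole set. Selp was 4.76-fold higher (log2 2.25, SE 0.57, adjusted p = 0.00655 by edgeR). Its control MEP libraries held 4.18, 7.72, 6.15 and 4.87 CPM. Vwf was 3.28-fold higher (log2 1.72, SE 0.57, edgeR adjusted p = 0.0318) and Gp9, the receptor subunit, 2.53-fold higher (log2 1.34, SE 0.41, edgeR adjusted p = 0.0189).

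The other 5 measured members had positive differences that did not pass the edgeR threshold. Gp1bb had a log2 difference of 1.53 (SE 0.63, adjusted p = 0.0767) and Ppbp of 1.95 (SE 0.94, adjusted p = 0.131). Treml1 had a log2 difference of 1.34 (SE 0.75, adjusted p = 0.194), Pf4 of 1.11 (SE 0.70, adjusted p = 0.257) and Plek of 0.85 (SE 0.40, adjusted p = 0.125). The control CLP libraries, which share the estimate of spread in this fit, ranged from 0 to 9.22 CPM of Treml1 and from 7.17 to 75.7 CPM of Pf4. With HSC and MEP libraries alone, edgeR called 9 of 9 members higher, beside 26.2% of all genes, with adjusted p-values from 0.000107 for Vwf to 0.00928 for Plek. With the mouse pool as a block, 2 of 9 were called, Clec1b (adjusted p = 0.00819) and Selp (adjusted p = 0.0157), beside 17.6% of all genes called higher. Vwf and Gp9 then had adjusted p-values of 0.0655 and 0.0605. Leaving out pool 3, 5 or 7 left 2, 0 and 1 members called, with HSC then held by 2 libraries.

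**Figure D2:**
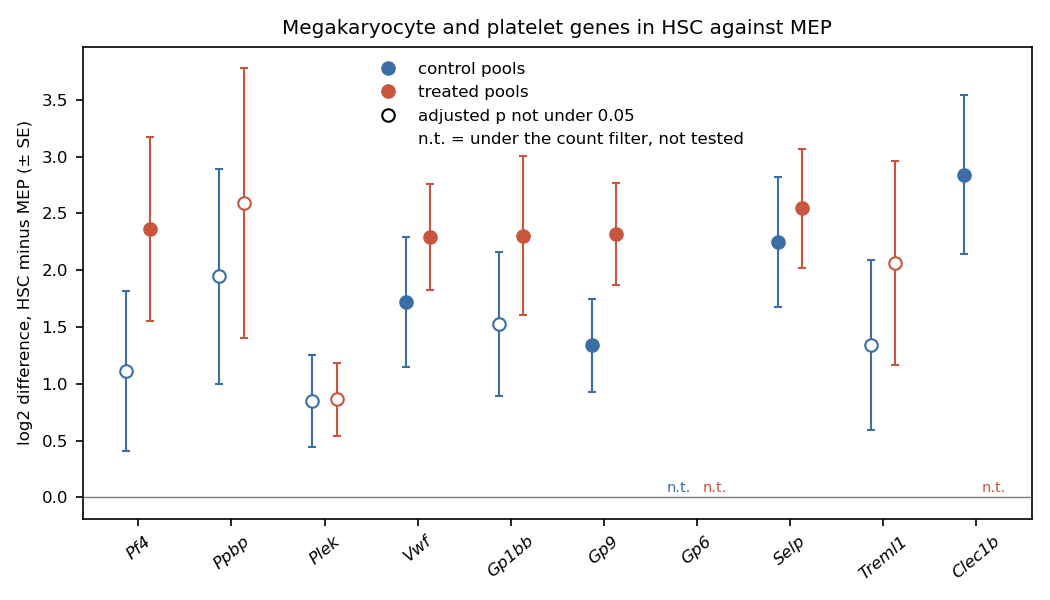
Difference of HSC minus MEP on the log2 scale (vertical axis) for the 10 genes (horizontal axis), with control pools in blue and treated pools in red and bars of 1 SE. Filled points passed an adjusted p of 0.05. Each tested gene lies above 0 in both sets of mice, and Gp6 was not tested in either.

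Treated pools gave the same contrast in other mice, with no library in common. Of 8 members above the filter there (not Gp6 or Clec1b), 5 were called higher and 0 lower by edgeR, beside 14.9% of 15472 genes called higher and 29.8% in either direction. Gp9 was 5.00-fold higher (log2 2.32, SE 0.45, edgeR adjusted p = 0.000944), at 23.2, 21.4, 16.4 and 18.0 CPM in HSC pools 2, 4, 6 and 8. The MEP libraries of these pools held 3.63, 4.43, 3.84 and 4.34 CPM of Gp9. Selp was 5.84-fold higher (log2 2.55, SE 0.53, edgeR adjusted p = 0.00157), at 25.1, 28.1, 21.9 and 18.1 CPM in HSC. MEP held 2.22, 7.53, 1.80 and 4.63 CPM of Selp. Vwf was 4.89-fold higher (log2 2.29, SE 0.47, edgeR adjusted p = 0.00166), at 110, 74.8, 170 and 132 CPM in HSC and 23.2, 32.3, 24.9 and 17.3 CPM in MEP. For these 3 genes every HSC library again stood above every MEP library.

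Pf4 and Gp1bb also passed in treated pools, and the difference between the sets of pools was tested separately. Pf4 was 5.14-fold higher (log2 2.36, SE 0.81, edgeR adjusted p = 0.0413), at 192, 90.6, 60.2 and 64.5 CPM in HSC and 20.8, 25.8, 25.5 and 11.5 CPM in MEP. Gp1bb was 4.93-fold higher (log2 2.30, SE 0.70, edgeR adjusted p = 0.0197). With the mouse pool as a block Pf4 was no longer called (edgeR adjusted p = 0.0547), and Vwf, Gp1bb, Gp9 and Selp were, beside 13.9% of all genes called higher. With HSC and MEP libraries alone, 7 members were called, beside 21% of all genes called higher. Plek (log2 0.86, adjusted p = 0.0523), Treml1 (log2 2.07, adjusted p = 0.0955) and Ppbp (log2 2.59, adjusted p = 0.114) did not pass in edgeR. Clec1b, called in control pools, had 5, 0, 0 and 40 counts in treated HSC and 8, 3, 5 and 2 counts in treated MEP, and the groups overlapped. Treated HSC pool 6 had 107412 counts in all, so its values rest on few counts, such as 11 for Pf4, 3 for Gp9 and 4 for Selp. Leaving out the libraries under 1000000 counts also left 5 members called, and leaving out pool 2 or pool 6 left 3.

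Within single mouse pools the direction was the same for most members. In the 3 control pools with both populations, HSC exceeded MEP in 3 of 3 for 9 members, with a ratio of 2.96 to 4.31 for Vwf and 1.37 to 4.47 for Pf4. In the 4 treated pools, HSC exceeded MEP in 4 of 4 for Pf4, Vwf, Gp1bb, Gp9, Selp and Treml1. It did so in 3 of 4 for Ppbp and Plek and in 2 of 4 for Clec1b. Where every HSC library stood above every MEP library, the count of pools follows from that and adds nothing to it. The share of all genes with HSC above MEP in every pool was not computed.

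The dependence of the HSC to MEP difference on the antibody was tested as an interaction over 15 libraries. No gene passed (0% of 15700 genes called by edgeR, 1075 with an unadjusted p under 0.05, and 0 with the mouse pool as a block). Of 9 members tested, 0 were called. Gp9 had the smallest p among them, with a log2 difference between the contrasts of 1.02 (SE 0.33, unadjusted p = 0.00666, edgeR adjusted p = 0.721). Pf4 had 1.31 (SE 0.54, unadjusted p = 0.0282, edgeR adjusted p = 0.721) and Clec1b had -0.82 (SE 1.06, edgeR adjusted p = 0.88).

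Other genes of the platelet programme differed by class between control HSC and MEP, against the same 18.9% called higher and 13.1% called lower among all genes. Of 18 tested platelet surface receptor genes, 9 were called higher and 0 lower (median log2 1.51). Esam, an adhesion molecule of platelets and endothelium, was 23.8-fold higher in HSC (edgeR adjusted p = 3.16e-06) and P2rx1, an ATP-gated channel, 5.10-fold higher (edgeR adjusted p = 1.19e-05). Jam3 and the tetraspanin Cd9 were 22.9-fold and 3.32-fold higher. The partners of Gp1bb and Gp9 in the von Willebrand factor receptor are named after their values had been seen. Gp1ba, the ligand-binding chain, stood at 11.8 ± 0.949 CPM in HSC (SD, n = 3) and 7.16 ± 1.42 in MEP (n = 4, log2 0.73, edgeR adjusted p = 0.285). Gp5 stood at 29.5 ± 2.19 and 27.5 ± 0.59 CPM (log2 0.10, edgeR adjusted p = 0.909). So Gp9 was called higher in HSC while Gp1ba and Gp5 were not, and a difference between these subunits was not tested.

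Of 16 tested alpha-granule genes, 8 were called higher in HSC and 2 lower (median log2 0.96). Mmrn1, the granule protein multimerin, was 28.1-fold higher at 311 ± 21.0 CPM in HSC (SD, n = 3) against 11.2 ± 3.37 in MEP (n = 4, edgeR adjusted p = 4.7e-05). Clu, clusterin, was 28.7-fold higher and Cd63, a granule membrane tetraspanin, 3.41-fold higher. F13a1, a subunit of coagulation factor XIII, was lower in HSC (log2 -2.77, edgeR adjusted p = 0.000884). Of 15 genes of GPVI and CLEC-2 signalling, 9 were called higher and 0 lower (median log2 1.03). Among them were the adaptor Lcp2 (3.81-fold), the kinase Prkcq (3.31-fold), the phospholipase Plcg2 (2.87-fold) and the calcium channel subunit Orai1 (2.04-fold). Of the receptors at the head of these pathways, Gp6 had 0 counts in HSC, and Clec1b was called higher in HSC as given with the members. Of 13 tested cytoskeleton genes, 3 were called higher (Mylk, Actn1 and Tuba8) and 0 lower (median log2 0.20).

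Of 13 transcription factors known in megakaryocytes, 7 were called higher in HSC and 2 lower (median log2 0.87). Meis1 (5.05-fold) and the ETS factor Fli1 (3.22-fold) were among those higher. Gata1, which drives both the erythroid and the megakaryocyte programme, was lower in HSC, at 35.4 ± 6.78 CPM (SD, n = 3) against 183 ± 25.8 in MEP (n = 4, log2 -2.36, edgeR adjusted p = 0.00011). Gfi1b was the other factor called lower (log2 -1.36, edgeR adjusted p = 0.0018). In treated pools, where 14.9% of all genes were called higher and 14.9% lower, the calls were 9 higher and 1 lower of 17 surface receptor genes, 7 and 1 of 16 alpha-granule genes and 8 and 0 of 15 signalling genes. They were 3 and 0 of 12 cytoskeleton genes and 7 and 4 of 13 transcription factors. The platelet gene lists were chosen with earlier results of these data known and are no independent evidence of a direction.

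Markers of other cells also differed between HSC and MEP. Of 11 tested endothelial genes, 7 were called higher in control HSC and 0 lower (median log2 3.28), and the summed level of the list of 15 was 349 to 436 CPM in HSC and 57.1 to 75.0 CPM in MEP. Tie1 stood at 162 ± 45.7 CPM in HSC (SD, n = 3), Esam at 71.3 ± 3.64, Robo4 at 31.2 ± 7.99 and Emcn at 24.2 ± 5.53, and all 4 are also known in stem cells. Also called higher were Clec14a (249-fold, edgeR adjusted p = 0.00138), Sox18 (43.8-fold, edgeR adjusted p = 0.000522) and Tek (6.43-fold, edgeR adjusted p = 0.00015). Clec14a may have passed the count filter through the HSC libraries, where it was high, and in treated pools it was under the filter. Its fold, its call and its place in the count of 7 are therefore a description of these libraries. Cdh5, a further endothelial marker, had 2 counts over the 3 control HSC libraries and 2 over the 4 control MEP libraries. Sox17 had 0 in all 15 HSC and MEP libraries. Clec14a, Sox18, Tek, Cdh5 and Sox17 are named after their values had been seen. The summed level of 8 neutrophil genes was 344 to 1770 CPM in control HSC and 210 to 796 CPM in control MEP, with 0 of 8 called and 8 of 8 differences positive. In treated pools 0 of 8 were called and 0 of 8 were positive. Of 6 tested mast cell and basophil genes, 0 were called higher and 3 lower in control HSC (median log2 -2.57), and 0 and 2 in treated HSC. The summed level of that list of 8 was 6.88 to 14.4 CPM in control HSC and 21.0 to 89.7 CPM in control MEP. The part of other cells in the HSC to MEP difference was not tested.

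Against unsorted marrow, which holds megakaryocytes and platelets themselves, HSC held more of 5 members and less of Gp1bb. In a fit of the 10 control libraries of HSC, MEP and WBM in batch A, edgeR called 5 of 9 tested members higher in HSC and 1 lower, beside 32% of 16247 genes called higher, 33.1% lower and 65.1% in either direction. The members called higher were Vwf (8.59-fold), Selp (7.51-fold), Plek (3.87-fold), Treml1 (2.99-fold) and Gp9 (2.13-fold). Gp1bb was lower in HSC (log2 -1.62, SE 0.35, edgeR adjusted p = 0.00124). Pf4 (log2 0.25), Ppbp (log2 -2.57, edgeR adjusted p = 0.0657) and Clec1b (log2 -0.49) were not called. Without the libraries of pool 7, Ppbp had a log2 difference of -0.48.

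MEP, set against the same WBM libraries, were called higher for 2 members and lower for 3, beside 31.6% of genes called higher, 30.5% lower and 62% in either direction. Plek (log2 1.18, SE 0.23) and Vwf (log2 1.46, SE 0.26) were higher in MEP. Ppbp (log2 -4.54, SE 1.12, edgeR adjusted p = 0.00665), Clec1b (log2 -3.31, SE 0.44) and Gp1bb (log2 -3.12, SE 0.35) were lower. Without the libraries of pool 7, 4 members were called higher in MEP. The contrasts of HSC and of MEP with WBM share their WBM libraries.

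**Figure D3:**
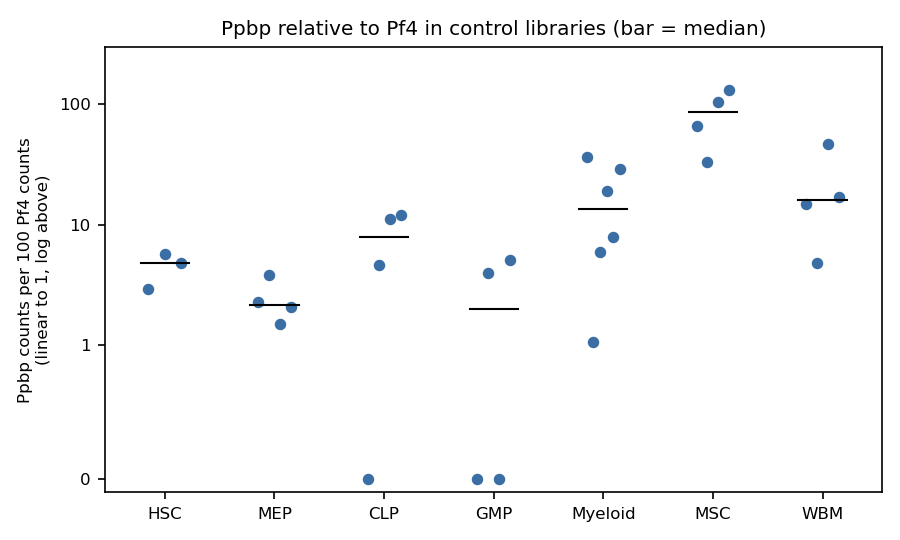
Ppbp counts per 100 Pf4 counts (vertical axis, linear up to 1 and logarithmic above) in control libraries with at least 1 Pf4 count, by population (horizontal axis). Points are libraries and bars are medians. HSC and MEP points lie between 1.51 and 5.70, and the 4 MSC points between 33.3 and 133.

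The chemokine neighbours were also set against each other as a ratio. Control HSC libraries held 2.94 to 5.70 Ppbp counts per 100 Pf4 counts (median 4.85) and control MEP libraries 1.51 to 3.84 (median 2.17). WBM libraries held 4.86 to 46.5 (median 16.0) and control Myeloid libraries 1.06 to 36.9 (median 13.5). The 4 control MSC libraries with any Pf4 count held 33.3 to 133, although 2 of them rested on 6 Pf4 counts each. In treated pools, HSC libraries held 0 to 5.39 (median 2.07) and MEP libraries 1.71 to 3.30 (median 1.85). The 0 was HSC pool 6, with 11 Pf4 counts. Treated Myeloid libraries held 0 to 83.9 (median 1.03), and the 3 treated MSC libraries with any Pf4 count 38.7 to 2067. The ratio is a description over libraries and was not tested.

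Stroma held little of most members. Of 9 tested members, edgeR called 5 lower in control MSC than in WBM and 0 higher, beside 26.1% of 17169 genes called lower, 23.1% higher and 49.2% in either direction and a median of -0.22 over all genes. The 5 were Gp1bb (log2 -4.51, SE 0.98), Gp9 (log2 -4.26, SE 1.64), Pf4 (log2 -3.91, SE 1.23), Clec1b (log2 -3.08, SE 1.01) and Plek (log2 -2.30, SE 0.52). Vwf was not called (log2 -0.63, SE 0.68, edgeR adjusted p = 0.472), with 0, 0.304, 5.31, 6.25, 11.6 and 13.7 CPM over the 6 control MSC libraries against 8.01 to 17.2 CPM in WBM. With the mouse pool as a block, Ppbp (log2 -4.63) and Treml1 (log2 -9.47) were also called lower in edgeR. Treml1 had 0 counts in 4 of the 6 control MSC libraries, so the size of its difference is poorly determined. Without the block it was -4.04 on the log2 scale and not called. Leaving out pool 1, 3, 5 or 7 left 3, 3, 2 and 3 members called lower. Within MSC, control pool 19 was the highest library for 6 members, with 23.2 CPM of Pf4, 30.8 of Ppbp, 4.07 of Treml1 and 2.89 of Gp9. Control pool 15 of the same batch held 0 counts of Pf4, Treml1 and Gp9. Of 13 tested endothelial genes, 2 were called higher in MSC than in WBM, Emcn (19.0-fold) and Clec14a (128-fold), and 1 lower, Tie1 (log2 -4.24). The summed level of the endothelial list was 24.9 to 192 CPM in control MSC (median 28.6) and 27.5 to 42.1 CPM in WBM (median 30.4). The defining marker Cdh5 had 0 counts in 4 of the 6 control MSC libraries. The 4 endothelial genes named here were chosen after their values had been seen, and the part of endothelial cells in the MSC values was not tested.

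Gp1bb needs its neighbour beside it. Its annotated interval overlaps Sept5, which encodes a septin, on the same strand, and the deposited counts had been assigned by an estimating tool. In HSC, Gp1bb took 50 to 93.4% of the counts of the pair, the lowest in treated pool 6 with 1 count of each gene. In MEP, Gp1bb took 17 to 75.5%. How the split bears on the HSC to MEP difference of Gp1bb was not tested. In Myeloid cells it took 2.82 to 15.5% in batch B and 12.6 to 71.5% in batch C. In WBM it took 6.57 to 18.7% in batch A and 82.4% in the single library of batch C. Gp1bb stood at 16.1 to 46.2 CPM in the 6 Myeloid libraries of batch B and at 38.9 to 155 CPM in the 6 of batch C, while Sept5 stood at 253 to 589 and 54.8 to 285 CPM. Gp9, its partner gene, went the other way, at 2.06 to 4.21 CPM in batch B and 0 to 0.679 CPM in batch C of Myeloid. The level of Gp1bb in Myeloid cells and WBM therefore moved with batch and with the overlapping gene, whose part in it was not tested. Clec1b, which overlaps Clec9a, differed less between the Myeloid batches. It stood at 4.36 to 10.5 CPM in batch B and 6.72 to 16.6 CPM in batch C. Clec9a itself stood at 3.15 to 6.80 CPM in control HSC and 1.42 to 2.35 CPM in control MEP. In treated pools Clec9a stood at 0 to 2.50 CPM in HSC and 0.577 to 2.84 CPM in MEP. How the split of this pair bears on the HSC to MEP difference of Clec1b was not tested.

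**Figure D4:**
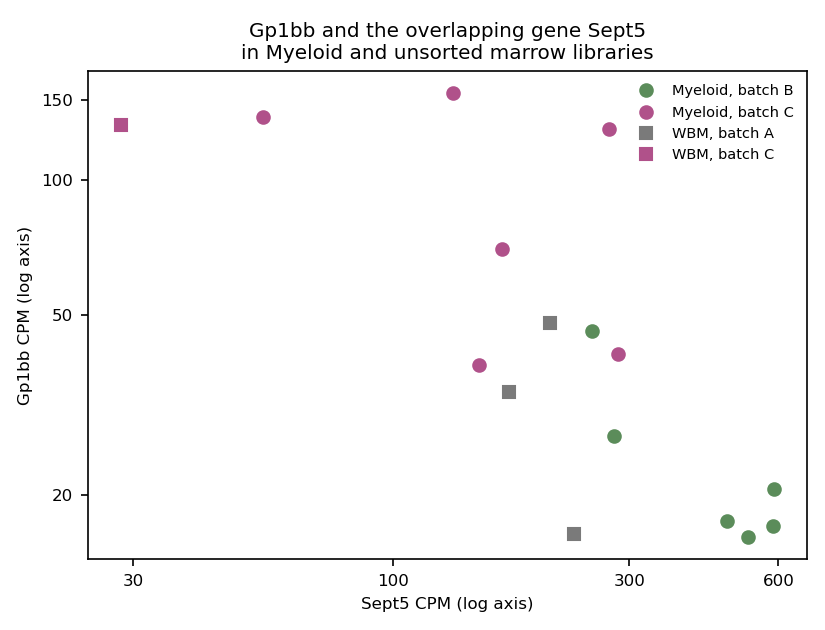
Gp1bb (vertical axis) against the overlapping gene Sept5 (horizontal axis), both in CPM on log axes, in Myeloid (circles) and WBM (squares) libraries coloured by batch. Batch C libraries reach 155 CPM of Gp1bb, and batch B libraries lie at 46.2 CPM or less with 253 CPM or more of Sept5.

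The antibody comparison within each population called no member. Beside this, edgeR called 0.0069% of 14494 genes in HSC, 0% of 13307 in MEP, 0% of 12520 in CLP, 0% of 15334 in GMP, 0.0313% of 15984 in MSC (0.0125% higher and 0.0188% lower) and 0% of 16803 in Myeloid. The numbers of genes with an unadjusted p under 0.05 were 1156, 444, 29, 195, 676 and 437 in the same order. DESeq2 and every other alternative tried also called 0 members.

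In MEP the 7 tested members all had negative differences, with a median log2 of -0.46 beside 0.01 over all genes. Gp9 stood at 6.47, 9.42, 7.44 and 5.04 CPM in control and 3.63, 4.43, 3.84 and 4.34 CPM in treated MEP. The groups did not overlap, and the difference did not pass (log2 -0.76, SE 0.24, unadjusted p = 0.0108, edgeR adjusted p = 0.999). The share of all genes whose control and treated libraries do not overlap was not computed in any population, so this is a description alone. Plek stood at 79.6, 151, 98.7 and 95.9 CPM in control and 46.6, 87.8, 43.7 and 55.6 CPM in treated MEP (log2 -0.83, SE 0.26, unadjusted p = 0.0095, edgeR adjusted p = 0.999). Treated pool 4 overlapped the controls for Plek. Pf4 had a log2 difference of -0.68, Treml1 of -0.46, Selp of -0.45, Gp1bb of -0.41 and Vwf of -0.40, each with an edgeR adjusted p of 0.999. In the same comparison 8 of 8 neutrophil genes had positive differences (median log2 2.08, 0 called), and 1 treated MEP library reached 5997 CPM of that list while the control libraries held 210 to 796.

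In HSC the members did not share a direction, with 5 of 9 differences positive and a median log2 of 0.21. Plek stood at 221, 192 and 160 CPM in control and 142, 56.4, 120 and 105 CPM in treated HSC. The groups did not overlap, but the difference did not pass (log2 -0.75, SE 0.25, unadjusted p = 0.00974, edgeR adjusted p = 0.61). As in MEP, the separation is a description alone. Pf4 had a log2 difference of 0.68 (SE 0.40, edgeR adjusted p = 0.687), with treated pool 2 at 192 CPM above the other 3 treated libraries at 60.2 to 90.6. Clec1b had -1.20 (SE 0.76, edgeR adjusted p = 0.69) and Selp -0.07 (SE 0.34, edgeR adjusted p = 0.981). In CLP 0 of 5 tested members had a positive difference, in GMP 4 of 5, in MSC 1 of 7 and in Myeloid 3 of 9. In Myeloid cells, fitted with batch, Selp had a log2 difference of -0.82 (SE 0.39, unadjusted p = 0.0535, edgeR adjusted p = 0.995).

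**Figure D5:**
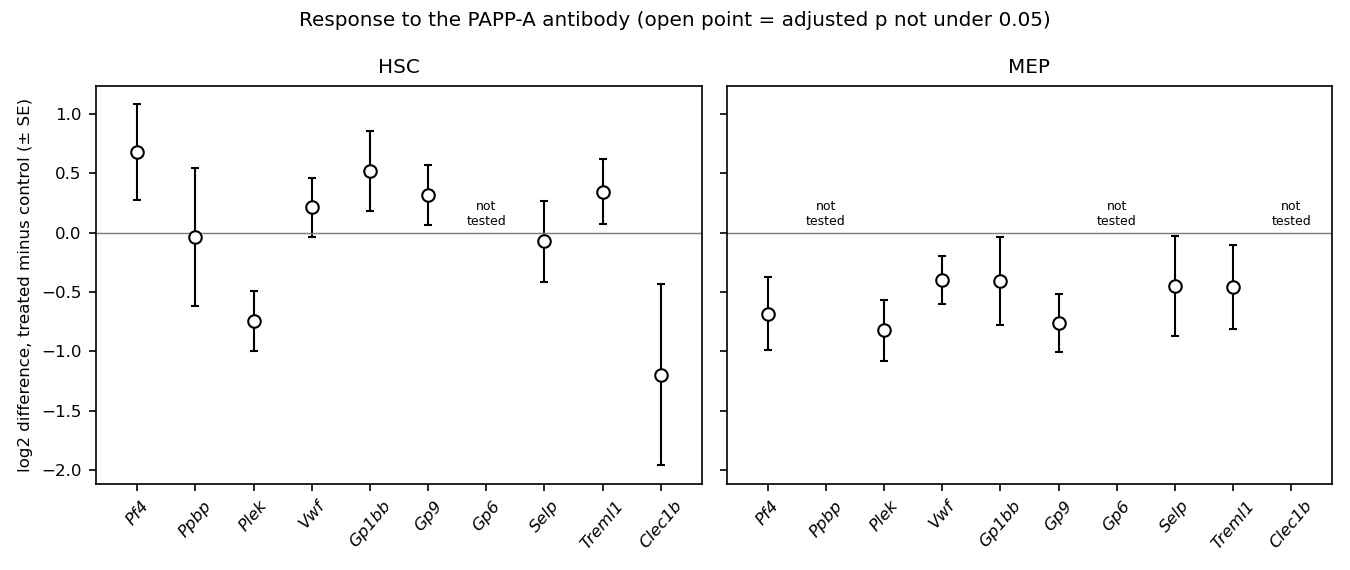
Treated minus control difference on the log2 scale (vertical axis, bars of 1 SE) for the 10 genes (horizontal axis) in HSC (left) and MEP (right). All points are open because none passed an adjusted p of 0.05. In MEP the 7 tested genes lie below 0, and in HSC 5 of 9 lie above it.

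Among themselves, members varied together over the 15 control HSC, CLP, GMP and MEP libraries, where population differences are part of every correlation. Pearson's r of log2 CPM was 0.92 between Pf4 and Vwf, 0.94 between Vwf and Selp and 0.87 between Gp1bb and Gp9. It was 0.44 between Ppbp and Gp9 and 0.53 between Pf4 and Clec1b. Within a population, the same library was often highest for many members. Control MEP pool 3 was highest of 4 for 10 of 10 members, control GMP pool 3 for 8 of 9 and control CLP pool 7 for 8 of 10. Treated MEP pool 4 and treated GMP pool 4 were each highest for 7 of 10. Gp6, 1 of the 10 members in control MEP, had 5 counts in all over the 4 libraries. The share of all genes with their highest level in a given library was not computed. These tallies therefore describe the libraries and cannot be read as a trait of the members.

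The genes most like Vwf over these 15 libraries, among 15142 genes, were Rab27b (r = 0.99), Ehd3 (r = 0.97), Sdpr (r = 0.97), Art4 (r = 0.96) and Prkcq (r = 0.96). Those most like Pf4 were Sdpr (r = 0.96), Rab27b (r = 0.93), Mmrn1, Phlpp1 and Robo3 (each r = 0.92). Rab27b, a small GTPase of secretory granules, stood at 60.9 ± 6.70 CPM in control HSC (SD, n = 3) and 16.4 ± 4.81 CPM in MEP (n = 4). Sdpr, a caveola-associated protein gene, stood at 105 ± 6.95 and 17.0 ± 5.93 CPM. Rab27b and Sdpr were thus in both lists, and each correlation shares the libraries and their depth.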

How the data were processed

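The deposited table gives estimated counts per gene and library that the authors had made with Salmon, already whole numbers; FastQC 0.11.5 and mm10 are also named, per the submitters' processing notes. The annotation release is not given in the sources used here. The labels give total RNA and a strand-specific kit. Repeated lines of a gene and library (0 differed) were counted once. Genes were tested with edgeR 4.0.16 (R 4.3.3, limma 3.58.1) by robust quasi-likelihood after filterByExpr and TMM, with Benjamini-Hochberg adjustment over all genes tested and a threshold of 0.05; MSC and Myeloid fits had batch as a term. The scripts were tested on simulated data. Log2 CPM used a prior count of 1. Alternatives were DESeq2 1.42.0, other scaling, no filter, left-out pools or shallow libraries, fewer populations, and the pool as a block, since the labels give the same mice for a pool number. Deviations of same-pool libraries had a mean r of 0.091 (control, 21 pairs) and 0.036 (treated, 24 pairs), against -0.021 and -0.013 for other pools. Library totals set the precision. All 10 members are named, with up to 4 genes of each list by smallest p in control HSC minus MEP, and the 5 genes most correlated with Pf4 and with Vwf. A gene that this rule selects is not reported here. Members and lists were chosen with earlier results of these data known. P-values measure the spread between libraries within the groups of a fit. Except with the pool as a block, libraries of different populations from the same mice were treated as independent.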

Additional observations from a re-analysis of the deposited data

Results flagged for a closer look

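In 9 of 83 combinations of a gene and a group, 1 library stood far from the others by Dixon's criterion at the 95% level. The groups held 4 to 6 libraries. For independent normal values, chance alone meets the criterion in about 1 in 20 groups. The CPM were not transformed and the members vary together, so the 9 cannot be set against that rate. Treated CLP pool 8 stood apart for 3 genes. It held 94.7 CPM of Pf4 (771 counts) against 8.78 to 13.5 CPM in the other treated CLP libraries, 6.02 CPM of Ppbp (49 counts) against 0 to 0.747, and 4.55 CPM of Gp1bb (37 counts) against 0.585 to 0.998.

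Control MSC pool 19 held 23.2 CPM of Pf4 (393 counts) against 0 to 5.60 CPM in the other control MSC libraries, and 30.8 CPM of Ppbp (522 counts) against 0 to 5.89. WBM pool 7 held 49.9 CPM of Ppbp (1697 counts) against 2.13 to 9.09 in the other WBM libraries. Control GMP pool 3 held 10.7 CPM of Vwf (132 counts) against 1.60 to 2.43. Treated HSC pool 2 held 24.1 CPM of Treml1 (126 counts) against 15.4 to 16.4. Control MSC pool 7 held 6.20 CPM of Selp, which was 1 count in a library of 321860, against 0 to 1.67.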

How the results depend on the processing

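Of 1176 values of single members and 456 counts recomputed under the alternatives, 0 called values changed sign. The number of members called higher in control HSC than in MEP, 4 in the fit reported, was 9 with HSC and MEP libraries alone, 2 with the mouse pool as a replicate block, and 0 to 4 when a pool was left out, with 3109 to 5785 genes called. In treated pools it was 3 to 5 when a pool was left out, with 2737 to 4574 genes called. Leaving out a pool gave 0 to 4 genes for the interaction, 1 to 2 members lower in HSC than WBM, 2 to 4 higher in MEP than WBM and 2 to 7 lower in MSC than WBM. DESeq2 and the fit with no low-count filter each called 2 members lower in HSC than WBM, and DESeq2 called 8 lower in MSC than WBM. Genes called between treated and control HSC, 1 in the fit reported, were 3 by DESeq2, 181 with no filter and 1 to 149 when a pool was left out, the highest without pool 8. In MEP, with 0 reported, they were 12, 2 and 0 to 1, and in Myeloid, with 0 reported, 1 by DESeq2 and 112 with no filter. In MSC, with 5 reported, they were 43 by DESeq2, 55 with no filter, 1 with library size alone, 2 without libraries under 1000000 counts, 1 with no batch term, 3 in batch C alone and 0 to 4 when a pool was left out. The cause of these shifts was not tested. The replicate block changed no call of a member beyond those named with the results. Scaling by library size alone, added after seeing the data, moved the median over all genes of HSC minus MEP from 0.05 to 0.19 (control) and from 0.04 to 0.22 (treated). Depth limits Gp6, Clec1b and every gene in the 4 libraries under 1000000 counts.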
